A study of Mus musculus with 57 samples.

Results

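The genes described here are 10 genes of the NRF2 antioxidant pathway, chosen by symbol, out of 25416 genes in the count table of an acute doxorubicin (Doxo) study and 54658 genes in that of a chronic study. They are the transcription factor Nfe2l2, which encodes NRF2, its inhibitor Keap1, and the 8 target genes Nqo1, Gclc, Gclm, Srxn1, Txnrd1, Slc7a11, Gsr and Mgst1. All 10 genes had a row in both tables. After removal of genes with low counts, 10 of them were tested in the acute study and 9 in the chronic study, where Slc7a11 had too few counts. The measurement was the number of RNA-seq reads per gene in whole-tissue RNA of 57 mouse hearts, expressed below as CPM, the reads of a gene scaled to its library's normalized total. In such bulk hearts, fewer cells of a type and less RNA per cell cannot be told apart.

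Every heart came from a wild-type male C57BL6/J mouse. In the acute study, mice bought at 9 weeks of age formed a Ctrl group (14 hearts) given saline, a Doxo group (13 hearts) given 1 i.p. injection of 20 mg/kg Doxo, and a Doxo-NMN group (13 hearts) injected in the same way and also treated i.p. with 180 mg/kg/day nicotinamide mononucleotide (NMN), a precursor of NAD+, from 5 days before Doxo, and hearts were collected on day 5 from animals alive on that day. In the chronic study, mice aged 14 to 16 weeks formed a Ctrl group (5 hearts) given PBS, a Doxo group (6 hearts) given 5 i.p. injections with a cumulative dose of 20 mg/kg, and a Doxo-NMN group (6 hearts) that also drank NMN at 500 mg/kg/day from 5 days before Doxo, and hearts were collected on day 60. Neither study had a group given NMN without Doxo, so an effect of NMN alone was not measured.

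NRF2 is a transcription factor that is bound by KEAP1 in the cytoplasm of unstressed cells and handed to a ubiquitin ligase for degradation. Oxidants and electrophiles modify cysteines of KEAP1, NRF2 then escapes degradation, pairs with a small MAF protein in the nucleus and binds antioxidant response elements near its target genes. In the heart these targets supply glutathione, keep thioredoxin and peroxiredoxins reduced and detoxify quinones, the chemical class of Doxo itself. Because NRF2 is controlled mainly through protein stability, its mRNA level and the level of its targets need not move together.

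The antioxidant response element core, spelled TGACNNNGC and searched on both strands, was looked for in the RefSeq promoter windows of these genes, each spanning 250 bases before to 50 bases after an annotated start (build GRCm38.p6). Of the 10 genes, 8 had windows (11 windows), and 5 of those windows, 1 each for Nfe2l2, Srxn1, Gclm, Mgst1 and Txnrd1, held the core, against 12.4% of all 32851 windows and 13.99% of all 27025 genes. These 5 stretches are shown because 4 of them belong to targets that were higher after acute Doxo, and the last to the gene of NRF2 itself. Each is printed 5′ to 3′ in the direction in which the core reads, with the core in capitals.
Nfe2l2: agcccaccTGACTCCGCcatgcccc
Gclm: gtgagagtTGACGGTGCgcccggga
Srxn1: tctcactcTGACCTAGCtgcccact
Txnrd1: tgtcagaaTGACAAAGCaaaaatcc
Mgst1: ccgcctccTGACCGTGCcaagcccc
The stretches lie at chr2:75704887-75704911 (minus strand, 240 bases before the start of Nfe2l2), chr3:122245415-122245439 (minus strand, 134 bases before the start of Gclm), chr2:152105544-152105568 (minus strand, 28 bases after the start of Srxn1), chr10:82859106-82859130 (minus strand, 92 bases before a start of Txnrd1) and chr6:138140463-138140487 (minus strand, 56 bases before a start of Mgst1). Windows of Keap1, Nqo1 and Slc7a11 were present and did not hold these letters, which says nothing of elements outside them. Gclc and Gsr were named only. A match is a description of letters and was not tested as a binding site.

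The libraries of the acute study held between 32409622 and 52102850 counts, and those of the chronic study between 17769886 and 23862287. The detection floor of 3 counts corresponded to 0.0576–0.0926 CPM per acute heart and 0.126–0.169 CPM per chronic heart, counting error alone considered. Of the counts from 1 to 20 per acute heart, 73.7% were even numbers, against 40.3% in chronic hearts. Whether part of the acute reads was counted in duplicate was not tested, so the acute floor and the lowest acute counts may stand for fewer reads than they show. Ventricular cardiomyocyte markers (Myh6, Myl2 and 4 others) summed to 57795 to 72897 CPM in Ctrl, 29172 to 73176 CPM in Doxo and 36894 to 81247 CPM in Doxo-NMN hearts. Hearts differed in atrial tissue, with at least 100 CPM of the atrial light chain Myl4 in 8 of the 14 Ctrl, 5 of 13 Doxo and 4 of 13 Doxo-NMN hearts. In the acute Doxo group, replicate 6 stood apart, since its red cell markers (Hba-a1, Hbb-bs and 4 others) summed to 339 CPM, against at most 3.85 CPM in the other Doxo hearts and 438 to 4317 CPM in Ctrl hearts, and the calls it changed are therefore given with and without it.

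Acute Doxo was compared with Ctrl to ask which pathway genes differed 5 days after a single high dose. Of the 8 target genes 7 were higher in Doxo hearts, from 2.33-fold for Gclc, the catalytic subunit of the first enzyme of glutathione synthesis, to 6.42-fold for Nqo1, a quinone reductase, and 7.39-fold for the sparsely counted cystine transporter gene Slc7a11. Nfe2l2 itself differed by only 1.35-fold, and Keap1 did not pass the test. Genes were called at a Benjamini-Hochberg adjusted p under 0.05 in edgeR's quasi-likelihood test over all 14240 tested genes together with a fold change of at least 1.5. By this rule 7 of 10 genes were called higher and 0 lower, against 14.7% of all tested genes called higher and 15.4% called lower, and the median log2 fold change was 1.69 over the 10 genes and −0.00157 over all tested genes. Without Doxo replicate 6 the same 7 genes were called, and leaving it out changed no call of the 10 genes in the 2 Doxo-NMN comparisons. Nqo1, Gclc, Gclm, Srxn1, Txnrd1 and Mgst1 belong to a panel that the study picked from these same hearts, so these counts are not independent evidence of their direction. Slc7a11, also among the 7, passed the filter for low counts mainly through Doxo hearts, 7 of which were above every Ctrl heart. Its call is therefore no independent evidence either, and with only the groups compared it had too few counts to be tested.

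**Figure D1:**
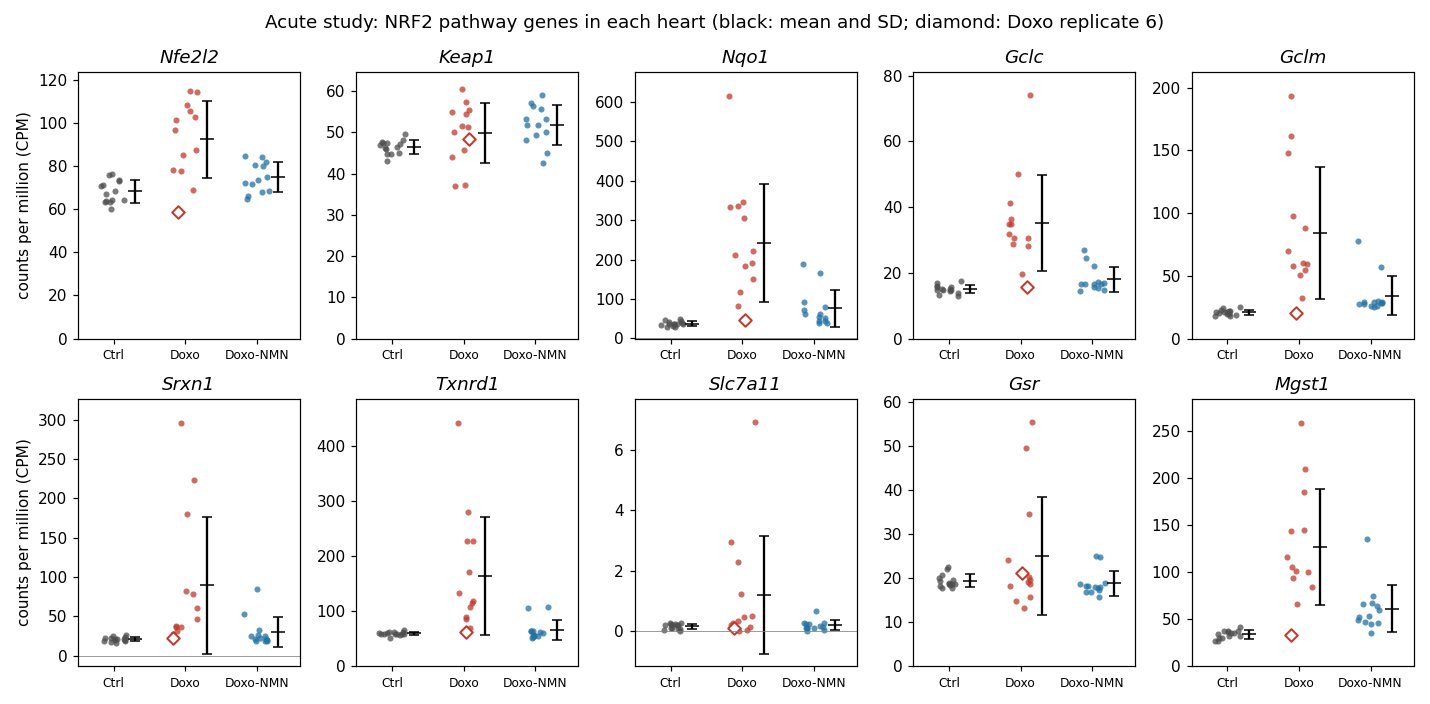
CPM of the 10 genes in each heart of the acute study, with 1 panel per gene and its own axis starting at or below 0, 14 Ctrl, 13 Doxo and 13 Doxo-NMN hearts as points, the mean and SD in black and Doxo replicate 6 as a diamond. For Nqo1, Gclc, Gclm, Srxn1, Txnrd1 and Mgst1 the diamond lies within or near the Ctrl hearts, while the other 12 Doxo hearts lie above every Ctrl heart.

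Nqo1 (ENSMUSG00000003849, chr8:107388225-107403206, minus strand, GRCm38) encodes the enzyme that reduces quinones with 2 electrons and so bypasses their semiquinone form. In Ctrl hearts its level ranged from 29.5 to 49.6 CPM with a median of 36.6. Doxo hearts ranged from 47.9 to 615 CPM with a median of 213, and 12 of 13 were above every Ctrl heart. The only Doxo heart in the range of the Ctrl hearts was replicate 6, at 47.9 CPM, and the next lowest Doxo heart had 81.3 CPM. Doxo-NMN hearts ranged from 38.1 to 188 CPM with a median of 61.0. The mean was 37.7 ± 6.22 CPM (SD) over the 14 Ctrl hearts, 242 ± 149 over the 13 Doxo hearts and 76.5 ± 47.5 over the 13 Doxo-NMN hearts. The log2 fold change of Doxo vs. Ctrl was 2.68 ± 0.27 (SE, adjusted p = 2.68e-10) and was 2.77 without replicate 6. Whether its enzyme acted on Doxo in these hearts was not measured.

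Gclc and Gclm encode the catalytic and the modifier subunit of glutamate-cysteine ligase, the enzyme that sets the rate of glutathione synthesis. Gclc (ENSMUSG00000032350, chr9:77754535-77794485, plus strand) ranged from 12.9 to 17.5 CPM (median 14.9) in Ctrl, from 15.5 to 74.3 CPM (median 31.7) in Doxo and from 14.5 to 26.9 CPM (median 16.7) in Doxo-NMN hearts. Of the Doxo hearts 12, but of the Doxo-NMN hearts only 3, were above every Ctrl heart, and 11 Doxo hearts were above every Doxo-NMN heart. Its log2 fold change of Doxo vs. Ctrl was 1.22 ± 0.14 (adjusted p = 1.81e-09). Gclm (ENSMUSG00000028124, chr3:122245557-122270732, plus strand) ranged from 18.1 to 25.1 CPM (median 21.1) in Ctrl, from 20.5 to 194 CPM (median 60.5) in Doxo and from 25.5 to 78.0 CPM (median 28.6) in Doxo-NMN hearts. The modifier subunit had the larger difference, with a log2 fold change of 2.01 ± 0.23 (adjusted p = 2.16e-09), though no test compared the 2 genes. All 13 Doxo-NMN hearts were above every Ctrl heart for Gclm, which held for 0.815% of tested genes and for none of the other 9 genes described here. Most of those 13 hearts exceeded the Ctrl range narrowly, since 11 of them had at most 29.96 CPM.

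Srxn1 and Txnrd1 serve the thioredoxin branch. Srxn1 (ENSMUSG00000032802, chr2:152105516-152111376, plus strand) encodes sulfiredoxin, which repairs overoxidized peroxiredoxins. It ranged from 16.2 to 25.6 CPM (median 21.1) in Ctrl and from 21.8 to 296 CPM (median 46.8) in Doxo hearts. Doxo-NMN hearts ranged from 18.5 to 85.3 CPM with a median of 21.7, and 4 of 13 were above every Ctrl heart. The Doxo hearts were spread widely, as the 3 highest had 296, 223 and 180 CPM, and the log2 fold change was 2.09 ± 0.32 (adjusted p = 5.73e-07). Txnrd1 (ENSMUSG00000020250, chr10:82833951-82897712, plus strand) encodes cytosolic thioredoxin reductase, which passes electrons from NADPH to thioredoxin. It ranged from 51.2 to 65.9 CPM (median 58.2) in Ctrl, from 61.2 to 442 CPM (median 117) in Doxo and from 50.9 to 107 CPM (median 59.2) in Doxo-NMN hearts. Only 2 Doxo-NMN hearts were above every Ctrl heart, and the log2 fold change of Doxo vs. Ctrl was 1.47 ± 0.20 (adjusted p = 7.89e-08).

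Mgst1 (ENSMUSG00000008540, chr6:138140316-138156755, plus strand) encodes a membrane-bound glutathione transferase of the endoplasmic reticulum and outer mitochondrial membrane that also reduces lipid peroxides. It ranged from 26.1 to 41.1 CPM (median 34.3) in Ctrl, from 33.2 to 259 CPM (median 105) in Doxo and from 35.2 to 135 CPM (median 52.9) in Doxo-NMN hearts. Above every Ctrl heart were 12 Doxo-NMN and 12 Doxo hearts. The log2 fold change of Doxo vs. Ctrl was 1.92 ± 0.20 (adjusted p = 3.08e-10). For Nqo1, Gclc, Gclm, Srxn1, Txnrd1 and Mgst1 alike, the 12 Doxo hearts other than replicate 6 were above every Ctrl heart, which held for 7.72% of all tested genes. With replicate 6 included, all 13 Doxo hearts were above every Ctrl heart for 0 of the 10 genes, against 0.435% of all tested genes.

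Gsr (ENSMUSG00000031584, chr8:33652523-33698163, plus strand) encodes glutathione reductase, which restores glutathione from its oxidized form with NADPH. It was the exception among the well-counted targets. Its level ranged from 17.7 to 22.4 CPM (median 18.8) in Ctrl, from 13.04 to 55.5 CPM (median 19.4) in Doxo and from 15.6 to 24.9 CPM (median 17.9) in Doxo-NMN hearts. Above every Ctrl heart were 4 Doxo hearts, and 3 were below every Ctrl heart, so that the groups overlapped in both directions. The log2 fold change was 0.37 ± 0.15 (adjusted p = 0.0331), under the cutoff of 1.5-fold. It no longer passed when any of the 3 highest hearts was left out, as it was 0.21 (adjusted p = 0.151) without Doxo replicate 8, 0.24 (adjusted p = 0.122) without Doxo replicate 13 and 0.31 (adjusted p = 0.0748) without Doxo replicate 5. Among hearts with at least 100 CPM of Myl4 it was −0.13 (adjusted p = 0.214), and among those with less it was 0.54 (adjusted p = 0.0434). All 3 highest hearts were among those with less.

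Slc7a11 (ENSMUSG00000027737, chr3:49892526-50443614, minus strand) encodes xCT, the transporter subunit that imports cystine in exchange for glutamate. Its counts were 0 to 12 per heart in Ctrl, 0 to 226 in Doxo and 0 to 26 in Doxo-NMN hearts, with 1 heart at 0 in each group. These were 0 to 0.263 CPM (median 0.193), 0 to 6.92 CPM (median 0.330) and 0 to 0.653 CPM (median 0.137). Above every Ctrl heart were 7 Doxo and 2 Doxo-NMN hearts, and the highest Doxo hearts were replicate 5 at 6.92 CPM, replicate 4 at 2.94 CPM and replicate 13 at 2.28 CPM. The fitted log2 fold change of Doxo vs. Ctrl was 2.89 ± 0.60 (adjusted p = 7.05e-05). It was 2.12 (adjusted p = 0.000798) without Doxo replicate 5, and 0.61 (adjusted p = 0.399) with limma voom and sample weights, while with DESeq2 it was 2.95 (adjusted p = 1.7e-06). With all counts divided by 2, or with only the groups compared in the fit, Slc7a11 had too few counts to be tested.

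Nfe2l2 (ENSMUSG00000015839, chr2:75675513-75704641, minus strand) ranged from 59.95 to 76.4 CPM (median 67.9) in Ctrl, from 58.6 to 115 CPM (median 96.7) in Doxo and from 64.8 to 84.7 CPM (median 73.5) in Doxo-NMN hearts. Of 13 Doxo hearts 11 were above every Ctrl heart, and replicate 6 was below every Ctrl heart at 58.6 CPM. The log2 fold change was 0.44 ± 0.07 (adjusted p = 3.21e-06), past the p threshold but not the 1.5-fold cutoff. Keap1 (ENSMUSG00000003308, chr9:21229730-21239361, minus strand) ranged from 43.1 to 49.5 CPM (median 46.7) in Ctrl, from 36.9 to 60.4 CPM (median 51.2) in Doxo and from 42.5 to 59.0 CPM (median 51.8) in Doxo-NMN hearts. Of the Doxo hearts 8 were above and 2 below every Ctrl heart. Its log2 fold change of 0.10 ± 0.06 did not pass the test (adjusted p = 0.12).

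**Figure D2:**
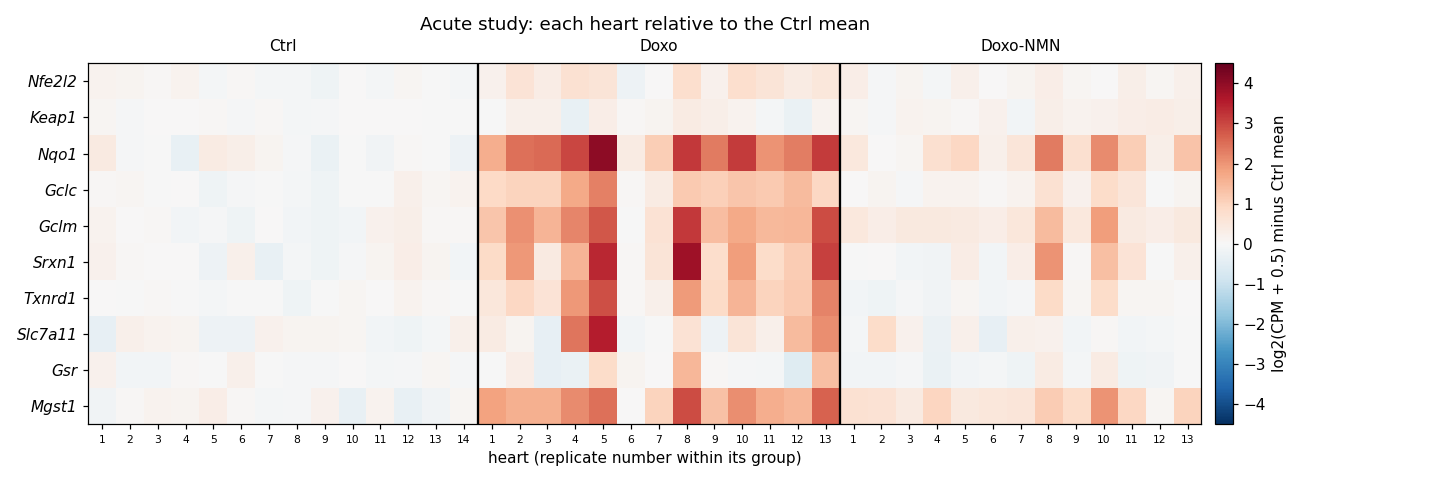
Level of the 10 genes (rows) in the 40 hearts of the acute study (columns, by group and replicate), as log2(CPM + 0.5) minus the mean of the Ctrl hearts on the same scale. Red is higher and blue lower; Doxo replicate 6 resembles the Ctrl columns, Doxo replicates 5, 8 and 13 are high across rows, and Doxo-NMN replicates 8 and 10 are the reddest of their group.

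The Doxo hearts with high levels tended to be the same hearts across genes. Doxo replicate 5 was among the 3 highest Doxo hearts for 8 of the 8 targets, replicate 13 for 6 and replicate 8 for 5, and in each of these 3 hearts all 10 genes were above every Ctrl heart. At the other end, replicate 6 had 0 of 10 genes above every Ctrl heart, and the remaining 9 Doxo hearts had 7 to 9. In the Doxo-NMN group, replicate 8 had 9 genes, replicate 10 had 8 and replicate 11 had 7 above every Ctrl heart, while the other 10 hearts had 2 to 5. The share of all tested genes above every Ctrl heart was not computed for single hearts. These counts therefore do not show a trait particular to the 10 genes. Neutrophil markers (S100a8, S100a9 and 5 others) also varied among hearts, but only partly in the same order. They summed to 2.49 to 7.28 CPM in Ctrl, 4.29 to 274 CPM in Doxo and 5.95 to 32.1 CPM in Doxo-NMN hearts. The highest sum was in Doxo replicate 13 and the second highest, 76.1 CPM, in Doxo replicate 8. Next came Doxo replicate 4 at 45.6 CPM, above replicate 5 at 38.3 CPM. In the Doxo-NMN group the sum was highest in replicate 10. There, replicate 9, with 4 genes above every Ctrl heart, had 31.03 CPM. Doxo-NMN replicate 8, with 9 such genes, had 17.98 CPM. Of 6 tested neutrophil markers, 6 were called higher in Doxo vs. Ctrl and 4 lower in Doxo-NMN vs. Doxo, against 14.7% and 8.88% of all tested genes. Of the 7 neutrophil markers, 1 was at 0 in every Ctrl heart. All 6 red cell markers were called lower in Doxo vs. Ctrl, against 15.4% of all tested genes. They summed to 0.209 to 2.81 CPM in Doxo-NMN hearts. The sum of the ventricular cardiomyocyte markers was low in the same 3 Doxo hearts, at 29172 CPM in replicate 8, 33448 in replicate 13 and 40529 in replicate 5, but also in replicate 12 at 36925 CPM. In the Doxo-NMN group it was lowest, at 36894 CPM, in replicate 10, where the next lowest Doxo-NMN heart had 56622 CPM. Doxo-NMN replicate 8, with 9 genes above every Ctrl heart, had 75958.5 CPM, above the highest Ctrl heart at 72897 CPM. Of the 6 ventricular markers, 1 was called higher and 2 lower in Doxo vs. Ctrl, against 14.7% and 15.4% of all tested genes. The part of these cell types in the levels of the pathway genes was not tested.

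Levels can be compared between genes only per length of transcript, as RPKM, which divides CPM by the exon length in kilobases. In Ctrl hearts the mean RPKM fell in the order Nqo1 (24.3 ± 4.003, SD, n = 14), Nfe2l2 (17.99 ± 1.39), Mgst1 (16.6 ± 2.18), Keap1 (9.90 ± 0.35), Txnrd1 (8.33 ± 0.48), Srxn1 (7.41 ± 0.96), Gsr (7.01 ± 0.53), Gclc (3.996 ± 0.34), Gclm (3.33 ± 0.34) and Slc7a11 (0.01 ± 0.01). Neighbours in this order that lay within the sum of their SDs were Nfe2l2 and Mgst1, Txnrd1 and Srxn1, Srxn1 and Gsr, and Gclc and Gclm. In Doxo hearts the mean RPKM was 156 ± 95.8 (SD) for Nqo1, 62.8 ± 30.6 for Mgst1 and 31.6 ± 31.0 for Srxn1, against 24.3 ± 4.71 for Nfe2l2. The means of Srxn1 and Nfe2l2 lay within the sum of their SDs. That of Srxn1 rested on few hearts, the highest at 296, 223 and 180 CPM against a median of 46.8 CPM. In Doxo-NMN hearts the means of Nqo1 (49.3 ± 30.6 RPKM) and Mgst1 (30.2 ± 12.3) were again the highest of the 10 genes. Srxn1 at 10.5 ± 6.79 RPKM was below Nfe2l2 at 19.7 ± 1.84.

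Doxo-NMN was compared with Doxo to ask whether NMN altered the response. Nqo1, Gclc, Gclm, Srxn1, Txnrd1, Slc7a11 and Mgst1 were lower in Doxo-NMN hearts, by 1.95-fold for Gclc to 3.16-fold for Nqo1 and 6.21-fold for Slc7a11. By the same rule 7 of 10 genes were called lower and 0 higher, against 8.88% of all tested genes called lower and 8.17% called higher, and the median log2 fold change was −1.18 over the 10 genes and −0.000827 over all tested genes. This comparison shares the 13 Doxo hearts with Doxo vs. Ctrl, so the same high Doxo hearts enter both. Nqo1, Gclc, Gclm, Srxn1, Txnrd1 and Mgst1 are also among the genes that the study named as most affected by NMN in these same hearts. Their calls are therefore not independent evidence of direction in this comparison either. Slc7a11 counts among the 7 here too, although it passed the filter for low counts mainly through Doxo hearts. The log2 fold changes were −1.66 ± 0.27 for Nqo1 (adjusted p = 7.01e-06), −0.96 ± 0.14 for Gclc (1.83e-06), −1.31 ± 0.23 for Gclm (1.94e-05) and −1.58 ± 0.33 for Srxn1 (0.000129). They were −1.33 ± 0.21 for Txnrd1 (adjusted p = 3.96e-06), −1.05 ± 0.20 for Mgst1 (4.24e-05) and −2.63 ± 0.61 for Slc7a11 (0.000476). Slc7a11 again did not pass with voom, where the value was −0.86 (adjusted p = 0.298), and it was −1.87 (adjusted p = 0.00447) without Doxo replicate 5. Although called, the levels overlapped, since 8 of 13 Doxo hearts were above every Doxo-NMN heart for Nqo1 and Txnrd1, 5 for Gclm and Mgst1 and 3 for Srxn1. Nfe2l2 was lower by less than 1.5-fold (log2 fold change −0.31 ± 0.08, adjusted p = 0.000994), Gsr likewise (−0.41 ± 0.16, adjusted p = 0.0249), and Keap1 had a log2 fold change of 0.06 ± 0.06 (adjusted p = 0.443). Without Doxo replicate 8 that of Gsr was −0.26 (adjusted p = 0.103), without Doxo replicate 13 it was −0.29 (adjusted p = 0.0859), and without Doxo replicate 5 it was −0.36 (adjusted p = 0.0542).

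Doxo-NMN was also compared with Ctrl to ask how far the treated hearts differed from untreated ones. Of the 10 genes 3 were called higher, Nqo1 at 2.03-fold, Mgst1 at 1.82-fold and Gclm at 1.62-fold, and 0 were called lower, against 3.31% and 3.79% of all tested genes. The log2 fold changes were 1.02 ± 0.26 for Nqo1 (adjusted p = 0.00358), 0.87 ± 0.19 for Mgst1 (0.00102) and 0.70 ± 0.22 for Gclm (0.0184). Gclm lost its call without Doxo-NMN replicate 10, with 0.54 (adjusted p = 0.0624). Keap1 passed the p threshold only, with 0.16 ± 0.06 (adjusted p = 0.0422). The other 6 genes did not pass, with 0.26 ± 0.14 for Gclc (adjusted p = 0.16), 0.51 ± 0.31 for Srxn1 (0.234), 0.14 ± 0.20 for Txnrd1 (0.643), 0.25 ± 0.64 for Slc7a11 (0.803), 0.13 ± 0.07 for Nfe2l2 (0.192) and −0.05 ± 0.15 for Gsr (0.852). For these 6 genes a p that misses the threshold does not show equal levels.

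**Figure D3:**
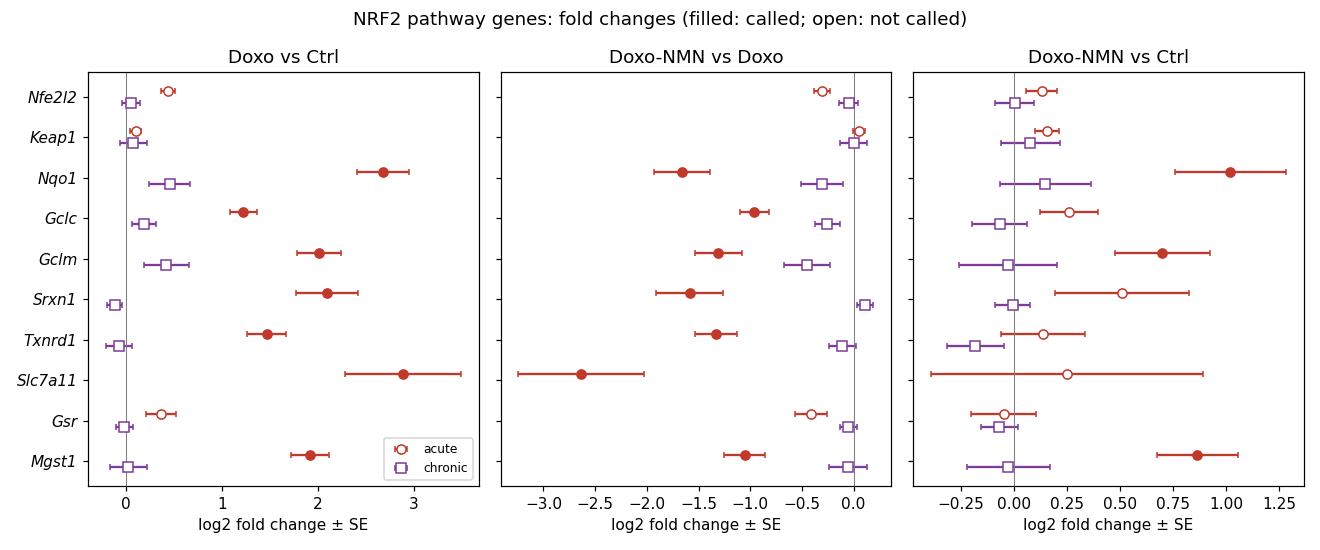
log2 fold change (points) with its SE (bars) of each gene in 3 panels, Doxo vs. Ctrl on the left, Doxo-NMN vs. Doxo in the middle and Doxo-NMN vs. Ctrl on the right, as circles for the acute and squares for the chronic study, filled where the gene was called and with a different scale in each panel. In the first panel 7 acute circles are filled on the right of 0, 7 in the second on the left, 3 in the third, and no chronic square is filled.

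Because atrial tissue was unevenly shared between the groups, the acute comparisons were repeated in the 23 hearts with less than 100 CPM of Myl4 and in the 17 hearts with at least that level. Nqo1, Gclc, Gclm, Srxn1, Txnrd1 and Mgst1 were called higher in Doxo vs. Ctrl in both sets. The log2 fold changes under and at or over the limit were 2.77 and 2.18 for Nqo1, 1.29 and 1.06 for Gclc, 2.25 and 1.36 for Gclm, and 2.15 and 1.504 for Mgst1. They were furthest apart for the thioredoxin genes, with 2.48 and 0.84 for Srxn1 and 1.75 and 0.77 for Txnrd1, and whether the 2 sets differed was not tested. The same 6 genes were called lower in Doxo-NMN vs. Doxo in both sets, with −1.73 and −1.66 for Nqo1. Slc7a11 was called in the first set only (4.19 against 0.93 in Doxo vs. Ctrl), and so was Gsr in Doxo-NMN vs. Doxo (−0.62, adjusted p = 0.0186, against 0.012). Doxo replicates 5, 8 and 13, the highest Doxo hearts for Srxn1 and Gsr, all fell in the set under the limit. Their part in the differences between the sets was not tested. In Doxo-NMN vs. Ctrl, 0 of the described genes were called under the limit and 1, Mgst1 with 0.62, at or over it. Under it Nqo1 had 1.04 (adjusted p = 0.0843) and Mgst1 had 0.99 (adjusted p = 0.0526). Over all genes and both directions, calls under and at or over the limit were 4282 and 4208 in Doxo vs. Ctrl and 2319 and 2374 in Doxo-NMN vs. Doxo. For Doxo-NMN vs. Ctrl they were 575 and 599, against 1012 in all acute hearts.

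The rest of the pathway was described through lists of NRF2 partners, other NRF2 targets, enzymes of NADPH metabolism, other peroxide and superoxide enzymes, and the partner of xCT with cysteine synthesis. Among 12 partners and regulators, 3 were called higher and 0 lower in acute Doxo vs. Ctrl, against 14.7% and 15.4% of all tested genes. The median log2 fold change was 0.29. The 3 were Sqstm1, the p62 adaptor that competes for KEAP1 (1.82 ± 0.21), and the small MAF genes Mafk (1.52 ± 0.17) and Maff (0.85 ± 0.17). Sqstm1 averaged 307 ± 31.9 CPM in Ctrl, 1083 ± 465 in Doxo and 538 ± 307 in Doxo-NMN hearts. Bach1, a repressor that competes for the same elements, had 0.53 (adjusted p = 3e-07) and was under the cutoff, and Nfe2l1, the related factor NRF1, had −0.06 (adjusted p = 0.54). In Doxo-NMN vs. Doxo, Mafk (−1.21) and Sqstm1 (−1.01) were called lower, against 8.88% of all tested genes. Maff (−0.54) was not called, though without Doxo replicate 6 it was, with −0.61 (adjusted p = 0.00152). Sqstm1 alone of the 12 was still called higher in Doxo-NMN vs. Ctrl (0.81), against 3.31% of all tested genes.

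Of 31 other NRF2 targets, 29 were tested. Some further NRF2 targets are not in this list and are described below among the enzymes of NADPH metabolism. In acute Doxo vs. Ctrl 16 were called higher and 1 lower (median log2 fold change 0.68), against 14.7% and 15.4% of all tested genes. Hmox1, the haem-degrading oxygenase, had 3.17 ± 0.36 (adjusted p = 1.9e-09) and averaged 8.46 ± 1.71 CPM in Ctrl, 76.5 ± 57.6 in Doxo and 15.1 ± 12.6 in Doxo-NMN hearts. The ferritin heavy chain gene Fth1 had 1.37 ± 0.13, and Htatip2 had 1.15 ± 0.11. The glutathione transferases Gstm1 (1.36 ± 0.13) and Gstm2 (0.96 ± 0.09) are near copies of one another whose reads could be shared in counting, so their separate values are uncertain. Cbr1, a carbonyl reductase that converts Doxo to its alcohol, was the only one called lower (−0.60 ± 0.10). Thioredoxin itself, Txn1, had 0.51 ± 0.11 (adjusted p = 8.7e-05), under the cutoff, and Prdx1 had 0.18 ± 0.09 (adjusted p = 0.065). In Doxo-NMN vs. Doxo, 9 were called lower, among them Hmox1 (−2.33) and Gstm1 (−0.63), and 1, Cbr1, higher (0.65), against 8.88% and 8.17% of all tested genes. In Doxo-NMN vs. Ctrl, 10 were called higher, against 3.31% of all tested genes. Among them were Fth1 (0.88), Gstm1 (0.73), Gstm2 (0.63) and Htatip2 (0.62), while Hmox1 had 0.84 (adjusted p = 0.063) and was not called. Without Doxo replicate 6, 12 were called higher in Doxo-NMN vs. Ctrl, Hmox1 (0.84, adjusted p = 0.0359) and Gsta2 (1.25, adjusted p = 0.0437, one of a family of near copies) being added, and 10 were called lower in Doxo-NMN vs. Doxo, with Htatip2 added (−0.59).

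**Figure D4:**
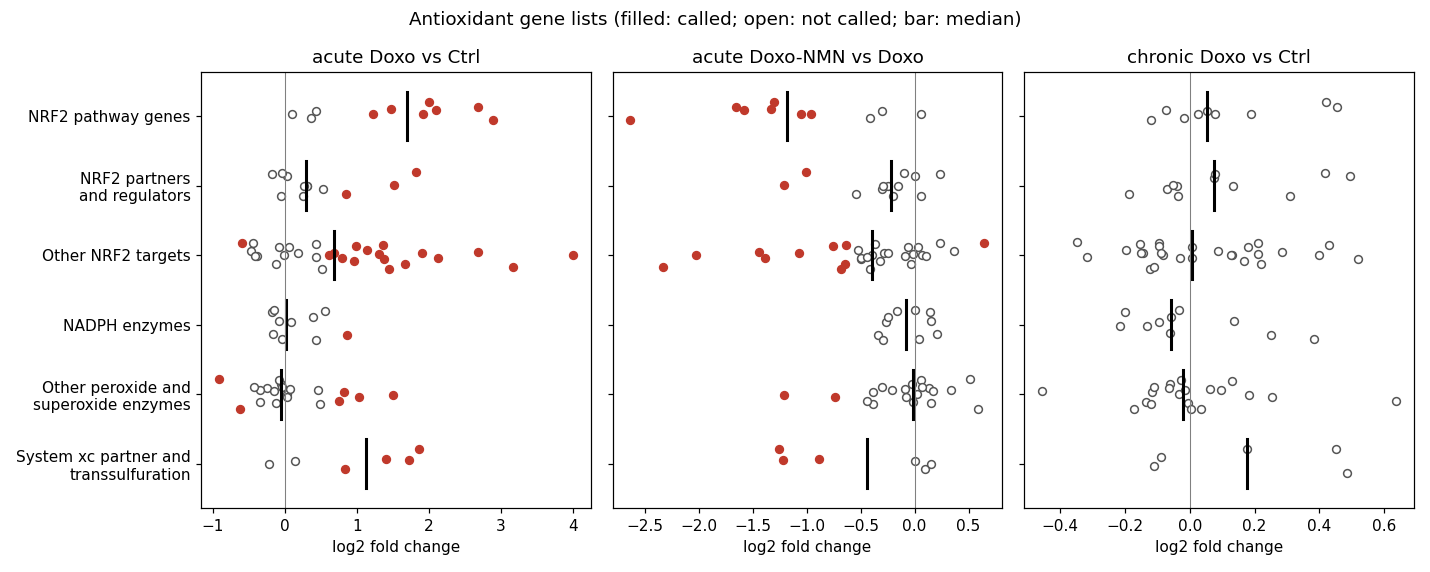
log2 fold change of every tested gene (dots) in the 10 genes and in the 5 pathway lists for acute Doxo vs. Ctrl, acute Doxo-NMN vs. Doxo and chronic Doxo vs. Ctrl, filled where called, with a bar at each list's median and a different scale in each panel. The median of the 10 genes is 1.69 in the first panel, −1.18 in the second and 0.05 in the third, and no dot is filled in the third.

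Among 20 other peroxide and superoxide enzymes, 4 were called higher and 2 lower in acute Doxo vs. Ctrl (median −0.05), shares near the 14.7% and 15.4% of all tested genes. The higher ones were the plasma glutathione peroxidase Gpx3 (1.499 ± 0.36), catalase, Cat (1.04 ± 0.18), glutathione synthetase, Gss (0.82 ± 0.09), and Sod1 (0.75 ± 0.10). The lower ones were the extracellular superoxide dismutase Sod3 (−0.91 ± 0.11) and Gpx8 (−0.62 ± 0.09). Of these, Gpx3 (−1.21) and Cat (−0.74) were called lower in Doxo-NMN vs. Doxo, and Gpx8 was called higher only without Doxo replicate 6 (0.65, against 0.58 with it). Of 10 enzymes of NADPH metabolism, 1 was called higher, the mitochondrial Idh2 (0.86 ± 0.11), against 14.7% of all tested genes. In this list G6pdx, Pgd, Taldo1, Tkt, Me1 and Idh1 are also NRF2 targets, and none of them was called. G6pdx, the first enzyme of the pentose phosphate pathway, had −0.19 (adjusted p = 0.18). Without Doxo replicate 6 the transhydrogenase gene Nnt was called as well (0.59, against 0.56 with it). Of the 6 genes of cysteine supply, 4 were called higher, against 14.7% of all tested genes. These 4 were Cbs (1.86 ± 0.43), Cth (1.73 ± 0.29), Slc3a2, the partner subunit of xCT (1.41 ± 0.14), and the glutathione-degrading enzyme Chac1 (0.84 ± 0.22). Slc3a2 averaged 38.97 ± 5.34 CPM in Ctrl, 104 ± 34.1 in Doxo and 56.1 ± 10.6 in Doxo-NMN hearts and was called lower in Doxo-NMN vs. Doxo (−0.88), as were Cbs (−1.25) and Cth (−1.22), while Chac1 was not (0.10).

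In the chronic study the same comparisons were made 60 days after the first of 5 smaller doses. By edgeR's quasi-likelihood test at an adjusted p under 0.05, 0 of the 9 tested genes were called in any of the 3 comparisons. At an unadjusted p under 0.05, 1 of 9 genes passed in Doxo vs. Ctrl (Nqo1, p = 0.0475, adjusted p = 0.63) and 0 passed in the others, against 7.85% of all tested genes in Doxo vs. Ctrl, 2.95% in Doxo-NMN vs. Doxo and 4.73% in Doxo-NMN vs. Ctrl. DESeq2 and limma voom called 0 of the 9 as well. Few genes of any kind were called, with 0.0535% of 14960 tested genes higher and 0.00668% lower in Doxo vs. Ctrl, 0% and 0% in Doxo-NMN vs. Doxo, and 0.0401% and 0% in Doxo-NMN vs. Ctrl. The median log2 fold change of the 9 genes was 0.05, −0.05 and −0.03.

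**Figure D5:**
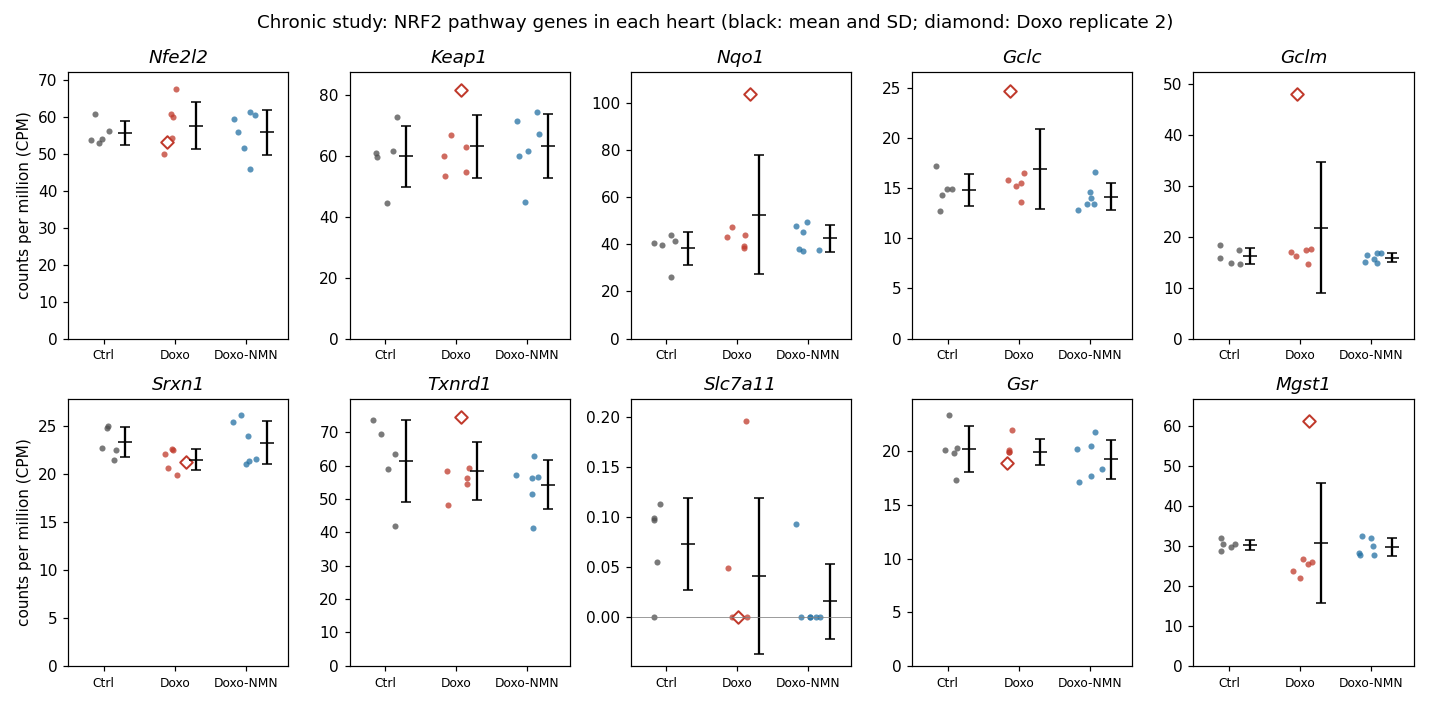
CPM of the 10 genes in each heart of the chronic study, with 1 panel per gene, 5 Ctrl, 6 Doxo and 6 Doxo-NMN hearts as points, the mean and SD in black and Doxo replicate 2 as a diamond. The diamond lies far above all other hearts for Nqo1 (104 CPM), Gclm (47.9), Gclc (24.7) and Mgst1 (61.3).

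A single chronic Doxo heart, replicate 2, held most of what differed. Nqo1 was at 26.1, 39.8, 43.8, 41.3 and 40.3 CPM in Ctrl hearts 1 to 5, at 38.2, 104, 39.1, 47.1, 43.9 and 43.2 CPM in Doxo hearts 1 to 6, and at 49.3, 37.4, 36.9, 45.2, 38.1 and 47.7 CPM in Doxo-NMN hearts 1 to 6. Apart from Doxo replicate 2 the Nqo1 values of the 3 groups overlapped. Gclm was at 14.5, 14.9, 17.3, 15.9 and 18.4 CPM in Ctrl, at 14.7, 47.9, 16.98, 17.6, 16.1 and 17.3 CPM in Doxo, and at 14.8, 16.8, 15.6, 16.8, 16.3 and 15.1 CPM in Doxo-NMN hearts. Gclc was at 14.9, 12.7, 14.3, 14.9 and 17.2 CPM in Ctrl, at 15.5, 24.7, 13.6, 16.5, 15.8 and 15.1 CPM in Doxo, and at 16.6, 13.4, 12.8, 14.004, 13.4 and 14.6 CPM in Doxo-NMN hearts. For both subunits of glutamate-cysteine ligase the second Doxo heart was the highest of all 17, and the others overlapped with Ctrl hearts. The log2 fold change of Doxo vs. Ctrl was 0.45 ± 0.22 for Nqo1 and 0.42 ± 0.23 for Gclm (adjusted p = 0.673), and was 0.14 and 0.03 without Doxo replicate 2.

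Mgst1 differed in its pattern from the other targets. It was at 31.9, 30.4, 30.4, 28.8 and 29.7 CPM in Ctrl, at 26.1, 61.3, 23.6, 22.02, 26.7 and 25.4 CPM in Doxo, and at 32.6, 28.2, 27.8, 31.98, 27.8 and 29.9 CPM in Doxo-NMN hearts. All Doxo hearts but replicate 2 were below every Ctrl and every Doxo-NMN heart, and replicate 2 was above all of them. Replicate 2 was set aside here after its value was seen. The share of all tested genes that separate in this way was not computed. The log2 fold change of Doxo vs. Ctrl was thus 0.03 (adjusted p = 0.983) with replicate 2 and −0.29 (adjusted p = 0.46) without it, and neither passed the test. Srxn1 was between 21.5 and 24.99 CPM in Ctrl, 19.8 and 22.5 CPM in Doxo and 21.04 and 26.1 CPM in Doxo-NMN hearts, with a log2 fold change of −0.12 (adjusted p = 0.722), and Doxo replicate 2, at 21.2 CPM, did not stand out.

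The other genes overlapped among the 3 groups. Txnrd1 averaged 61.5 ± 12.3 CPM (SD) over 5 Ctrl hearts, 58.5 ± 8.74 over 6 Doxo hearts and 54.2 ± 7.30 over 6 Doxo-NMN hearts. Gsr averaged 20.2 ± 2.13, 19.9 ± 1.18 and 19.3 ± 1.81 CPM, Nfe2l2 55.6 ± 3.20, 57.7 ± 6.41 and 55.8 ± 5.99 CPM, and Keap1 59.9 ± 10.1, 63.2 ± 10.3 and 63.3 ± 10.6 CPM in the same order. Slc7a11 had at most 4 counts in any chronic heart and was at 0 in 1 of 5 Ctrl, 4 of 6 Doxo and 5 of 6 Doxo-NMN hearts, so that a difference was not detectable at this depth. In Doxo-NMN vs. Doxo the log2 fold changes of the 9 genes lay between −0.45 (Gclm) and 0.11 (Srxn1), all with an adjusted p of 0.999. Without Doxo replicate 2 that of Gclm was −0.06, that of Nqo1 0.00 and that of Mgst1 0.26. None of the genes of the 5 pathway lists was called in a chronic comparison by edgeR; in Doxo vs. Ctrl, 1 of 27 other NRF2 targets, 2 of 10 NADPH enzymes, 2 of 20 peroxide enzymes, 0 of 11 partners and 0 of 5 genes of cysteine supply had an unadjusted p under 0.05, against 7.85% of all tested genes.

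The effect of Doxo was compared between the studies by an interaction test on the Ctrl and Doxo hearts of both, over 14965 genes. The effect was larger in the acute study for 6 of 10 genes, and smaller for 0, against 11% and 8.33% of all tested genes. All 6 belong to the panel that the study picked from the acute hearts, so this count is not independent evidence either. The difference of log2 fold changes, acute minus chronic, was 2.22 ± 0.43 for Nqo1 (adjusted p = 0.00227), 1.89 ± 0.35 for Mgst1 (0.00224), 2.21 ± 0.54 for Srxn1 (0.00697), 1.58 ± 0.42 for Gclm (0.0114), 1.03 ± 0.26 for Gclc (0.00786) and 1.53 ± 0.37 for Txnrd1 (0.00666). The direction follows the levels, since Nqo1 averaged 242 against 37.7 CPM in the acute study and 52.5 against 38.3 CPM in the chronic one. Nfe2l2 (0.38 ± 0.14, adjusted p = 0.0541), Slc7a11 (3.65 ± 1.87, 0.156), Gsr (0.38, 0.347) and Keap1 (0.02, 0.928) did not pass. Without acute Doxo replicate 6 Nfe2l2 passed as well (0.42, adjusted p = 0.00932). For Slc7a11 the value was 5.37 (adjusted p = 0.0882) without chronic Doxo replicate 4, the heart with 4 of the 5 counts of this gene in the chronic Doxo group. Without chronic Doxo replicate 2 the difference was 2.54 for Nqo1, 1.98 for Gclm and 2.21 for Mgst1, and the same 6 genes passed. Dose schedule, day of collection, age of the mice, laboratory and sequencing site all changed between the studies together and cannot be told apart.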

How the data were processed

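Poly(A) RNA of 57 mouse hearts was sequenced as single-end reads on an Illumina NovaSeq. Per the labels the authors mapped the reads to mm10 with STAR 2.7.3a and counted them per gene with featureCounts 2.0.0, and the deposited values are these whole-number counts per gene, not normalized or filtered. The annotation and the strand setting of the counting are not given in the sources used here, so reads of overlapping genes cannot be told apart. The acute and chronic tables come from different sequencing sites and were tested separately, except in the interaction test. Groups and replicate numbers were taken from the sample labels, each heart is a different mouse, and all 57 hearts were used. Total counts ranged from 32409622 to 52102850 (acute) and from 17769886 to 23862287 (chronic). No pair of libraries agreed within sampling noise (lowest chi-square per gene 9.91 and 5.09).

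Tests were run with edgeR 4.0.16 (R 4.3.3), the tool of the study's methods, after filterByExpr by group and TMM normalization, with the 3 groups of a study fitted together by the quasi-likelihood F-test and p-values adjusted by the Benjamini-Hochberg method over all tested genes. Acute genes were called when the adjusted p was below 0.05 and the change was 1.5-fold or more, chronic genes and the interaction by the adjusted p alone. CPM was computed from the counts with TMM library sizes, and RPKM with the union of exons in GENCODE M21, from which positions are also taken. On simulated counts with planted changes the fits were tested before use. Promoter windows were taken from RefSeq. Figures were drawn with matplotlib 3.10.9 in Python 3.11.15.

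The alternatives were limma voom with sample weights (limma 3.58.1), DESeq2 1.42.0, RLE size factors, a minimum of 10 counts per heart or no filter at all, only the groups compared, robust dispersions, the replicate number as a block, no or a 2-fold cutoff, counts divided by 2, hearts under or over 100 CPM of Myl4, no Doxo replicate 6, and each heart left out in turn. Named genes were all 10 genes of the pathway, up to 4 called genes in each direction with the smallest adjusted p from each list, Hmox1, Txn1, Prdx1, G6pdx, Bach1, Nfe2l1, Sqstm1 and Slc3a2, and the 5 genes whose pattern was most like that of Nqo1; genes whose call changed without Doxo replicate 6 were added after their values were seen. The genes, lists and tests were chosen with earlier results of these data known. Other assays of the study were not analysed here.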

Additional observations from a re-analysis of the deposited data

Results flagged for a closer look

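In 30 groups of chronic hearts (10 genes in 3 groups), 7 held a heart farther from the others than the 95% limit of Dixon's test allows. The rate expected by chance, about 1 in 20, holds for separate groups of continuous values. It cannot be set against these 7, since the same hearts enter for all 10 genes. Slc7a11 was also at 0 in most Doxo and Doxo-NMN hearts. Of the 7, 4 were the same heart, Doxo replicate 2, which had 104 CPM of Nqo1 (other Doxo hearts 38.2 to 47.1), 47.9 CPM of Gclm (14.7 to 17.6), 24.7 CPM of Gclc (13.6 to 16.5) and 61.3 CPM of Mgst1 (22.02 to 26.7). That heart also had the lowest red cell marker sum of the chronic hearts, 16.2 CPM, and the highest atrial marker sum, 540 CPM. Its sums of endothelial markers such as Pecam1 (687 CPM) and fibroblast markers such as Dcn (439 CPM) were the lowest. Its neutrophil marker sum, 10.9 CPM, was the highest, though chronic Doxo replicate 1 had 10.6 CPM. It was not extreme for ventricular cardiomyocyte or macrophage markers. Ctrl replicate 1 was low for Nqo1, at 26.1 CPM against 39.8 to 43.8. For Slc7a11, Doxo replicate 4 had 0.196 CPM against 0 to 0.0492, and Doxo-NMN replicate 4 had 0.0924 CPM against 0 in the others, values of at most 4 counts.

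The effect of Doxo differed between the acute and chronic studies by the interaction test for 6 genes, on the log2 scale by 2.22 for Nqo1, 2.21 for Srxn1, 1.89 for Mgst1, 1.58 for Gclm, 1.53 for Txnrd1 and 1.03 for Gclc, each larger in the acute study. Groups of more than 10 hearts, as in the acute study, were not examined for far hearts by this test.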

How the results depend on the processing

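Under the alternatives the count of the 10 genes called was 6 to 9 in acute Doxo vs. Ctrl and in Doxo-NMN vs. Doxo (7 each), 0 in each chronic comparison, and 6 to 8 in the interaction (6). With each heart left out it was 6 to 7, 6 to 7, 0 and 6 to 7, and in Doxo-NMN vs. Ctrl 2 to 3. The 9 under the alternatives came with no fold cutoff, where Nfe2l2 and Gsr passed as well. Dropping the cutoff let 9694 of all 14240 genes pass for Doxo vs. Ctrl and 7554 for Doxo-NMN vs. Doxo, in either direction. A count of 9 there therefore says little that is particular to the 10 genes. In acute Doxo-NMN vs. Ctrl the count of 3 became 1 with a 2-fold cutoff, 0 in hearts under 100 CPM of Myl4 and 1 in hearts at or over it; these sets hold fewer hearts. Gsr turned direction in hearts at or over 100 CPM of Myl4, to −0.13 in Doxo vs. Ctrl and 0.012 in Doxo-NMN vs. Doxo; the cause was not tested. Of 692 values of single genes, those of hearts left out in turn aside, 667 kept their side of the threshold, 13 lost and 10 gained a call and the 2 of Gsr turned; with the extremes of leaving out a heart, signs changed in 34, 28 of them chronic, and of these only the 2 of Gsr had passed an adjusted p. Nfe2l2 passed the interaction with DESeq2 (0.40, adjusted p = 0.0366), a minimum of 10 counts (0.39, adjusted p = 0.0417) or without chronic Doxo replicate 5 (0.43, adjusted p = 0.0409) or acute Doxo replicate 6 (0.42, adjusted p = 0.00932), and Slc7a11 with DESeq2 (3.81, adjusted p = 0.0362). Slc7a11 failed the count filter in 2 of 40 fits that left out a heart, and it was not tested at a minimum of 10 counts, with counts divided by 2 or with only the groups compared.

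Over all genes, acute Doxo vs. Ctrl had 4289 calls, against 2428 for Doxo-NMN vs. Doxo and 1012 for the comparison of Doxo-NMN with Ctrl, and these became 9694, 7554 and 3705 with no fold cutoff and 1848, 801 and 368 with 2-fold. The last was also 1698 with no filter, 647 with a minimum of 10 counts, and 575 and 599 in the Myl4 sets. Chronic Doxo vs. Ctrl had 9 calls, 24 with DESeq2, 54 with voom, 15 with no filter and 0 with a minimum of 10 counts, and Doxo-NMN vs. Ctrl had 6, 26 with voom and 0 with that minimum. The interaction had 2887, and 4604 without acute Doxo replicate 6.

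The replicate numbers did not pair the hearts: the correlation of deviations of same-numbered hearts was −0.676 to 0.645 over 39 acute pairs (18 over 0.1) and −0.301 to 0.464 over 16 chronic pairs (5 over 0.1), and 3 of 40 and 3 of 17 hearts correlated best with their own number. With the replicate number as a block the called genes of the 10 were 7, 7 and 3 in the acute comparisons and 0 in each chronic one, and the calls over all genes 4242, 2456 and 963, then 7, 0 and 4.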

Other observations

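The genes whose levels followed Nqo1 most closely were not NRF2 targets of the lists. Over the 40 acute hearts, with the group means subtracted, the 5 genes of 14239 with the highest Pearson correlation of log2 CPM with Nqo1 were the nuclear import receptor gene Ipo5 (r = 0.952, Spearman's rho = 0.936), the proteasome subunit genes Psmc1 (0.952, 0.954), Psma3 (0.931, 0.852) and Psmd1 (0.927, 0.880), and Trim54, a muscle RING finger gene (0.925, 0.922). Without the 2 hearts farthest from the median of Nqo1, Doxo replicates 5 and 6, r was 0.934, 0.928, 0.900, 0.893 and 0.906. Psmc1 averaged 113 CPM in Ctrl, 255 in Doxo and 147 in Doxo-NMN hearts. Among the other 9 pathway genes r was 0.860 for Gclm, 0.858 for Txnrd1, 0.813 for Gclc, 0.809 for Mgst1, 0.803 for Srxn1, 0.660 for Nfe2l2, 0.466 for Slc7a11, 0.458 for Gsr and 0.300 for Keap1, and without the same 2 hearts these became 0.790, 0.797, 0.692, 0.722, 0.739, 0.537, 0.217, 0.448 and 0.256. These values describe hearts that share library preparation and Doxo replicate 6, and carry no p.

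In chronic Doxo replicate 2, 6 of the 9 tested pathway genes (Keap1, Nqo1, Gclc, Gclm, Txnrd1 and Mgst1) were higher than in all other 16 chronic hearts, as were 13 of 27 other NRF2 targets, among them Hmox1, Fth1, Gstm1 and Pir, 6 of 11 partners, among them Sqstm1, Mafk and Maff, 3 of 5 genes of cysteine supply, 3 of 10 NADPH enzymes and 4 of 20 peroxide enzymes. For comparison, 20.5% of all tested genes were highest in that heart.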
